A study of Mus musculus with 4 samples.

Results

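The CD300 receptors are a family of myeloid cell-surface proteins encoded side by side on mouse chromosome 11. The genes described here are Cd300a, Cd300e, Cd300lb, Cd300ld and Cd300lf, 5 of the 22026 genes listed in the deposited tables, chosen by exact match of their symbols. They were measured in bone marrow derived macrophages of C57BL/6 mice, in 2 libraries labelled wildtype control (WT) and 2 labelled RBP-J KO. The RBP-J KO genotype is Rbpj f/f;LysM cre, in which Cre recombinase driven from the lysozyme M gene removes Rbpj in myeloid cells. RBP-J binds DNA and passes signals of Notch receptors on to their target genes, and the knockout was made to ask what RNA levels depend on that protein. All mice were 8 weeks old at harvest, and all marrow was cultured for 3 days in CMG14-12 supernatant, a source of the macrophage growth factor M-CSF at the equivalent of 20 ng/ml. The labels do not say whether the controls carried Cre or floxed alleles, or whether replicates came from separate mice. Sex-linked transcripts place the replicates of each genotype in mice of different sex. Every p-value, save those with the replicate number as a block, therefore reflects a spread including sex and the table layouts described with those transcripts.

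Each CD300 receptor has a single extracellular immunoglobulin domain of the variable type, and several bind lipids exposed on dying or activated cells, such as phosphatidylserine. The receptors come in opposing kinds. Cd300a and Cd300lf carry inhibitory tyrosine motifs (ITIMs) in their tails, which recruit phosphatases such as SHP-1, whereas Cd300lb, Cd300ld and Cd300e are regarded as activating receptors, most of which signal through adaptors with activating motifs (ITAMs) such as DAP12, encoded by Tyrobp, or the Fc receptor gamma chain, encoded by Fcer1g.

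Levels are in FPKM, which divides fragments by the length of the transcript and the size of the library, and so allows different genes to be set beside each other. Rbpj itself was at 355 and 573 FPKM in WT replicates 1 and 2, against 51.4 and 77.0 FPKM in those of RBP-J KO, 6.89-fold and 7.44-fold lower in pairs of equal replicate number (adjusted p = 0.457, limma with Benjamini-Hochberg adjustment). Of 9 macrophage markers, Csf1r and Cd68 were at 2287 FPKM or above in every library. At least 1.5-fold lower in RBP-J KO in both pairs were 2 of the 9, beside 3.63% of all genes tested. These were Cd14, a coreceptor for lipopolysaccharide, at 1715 and 1570 FPKM in WT but 764 and 800 FPKM in RBP-J KO, and Lyz2, the lysozyme M gene that drives Cre, at 218 and 192 FPKM in WT but 94.3 and 115 FPKM in RBP-J KO. The replicate numbers differed in more than the labels say: for WT and RBP-J KO in turn, the Y-linked gene Ddx3y had 193 and 174 FPKM in replicate 1 but was listed at 0 in replicate 2, while Xist was listed at 0 in replicate 1 and had 268 and 290 FPKM in replicate 2. The replicate 1 tables list genes and the replicate 2 tables list transcripts. Each RBP-J KO library is therefore also compared with the WT library of the same number, as pair 1 and pair 2.

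Of the 5 receptors, 2 were higher in RBP-J KO in both pairs by at least 1.5-fold on the log2(FPKM + 1) scale, Cd300a and Cd300e, and 0 were lower by that margin. Over all 11851 genes tested, 3.86% were higher and 3.63% lower by this rule. By any margin, 3 of the 5 receptors (Cd300a, Cd300e and Cd300lf) were higher and 1 (Cd300lb) was lower in both pairs, beside 25.1% and 34.1% of all genes tested. All 5 receptors averaged at least 1 FPKM and entered the test. None passed limma with Benjamini-Hochberg adjustment across the genes tested, a model in which 0% of genes had an adjusted p under 0.05 and 524 genes (4.42%) had an unadjusted p under 0.05, among them Cd300a and Cd300e. The median log2 difference of the 5 receptors was 0.73, which is the value of Cd300lf, beside -0.05 over all genes tested. The values of Cd300e, Cd300a, Cd300ld and Cd300lb were 2.27, 1.06, 0.17 and -0.18. In RNA from a whole culture, more cells of a type and more RNA per cell cannot be told apart.

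**Figure D1:**
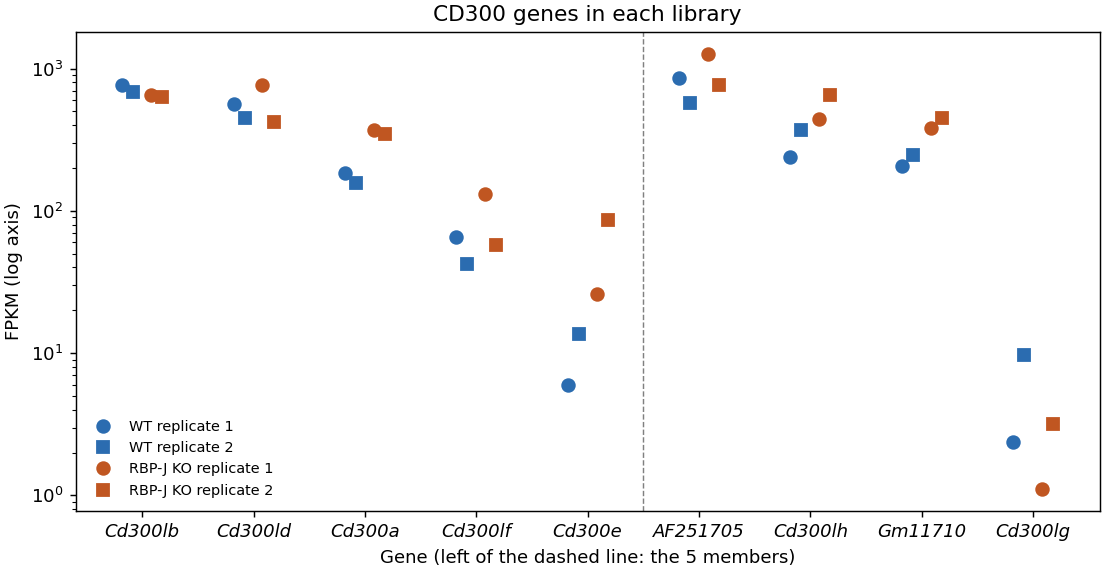
FPKM (log axis) of the 5 receptors and of 4 further CD300 genes in each of the 4 libraries; circles are replicate 1, squares replicate 2, blue WT and orange RBP-J KO. Both RBP-J KO libraries lie above both WT libraries for Cd300a and Cd300e, whereas Cd300lb stays between 627 and 768 FPKM.

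The order of the levels was Cd300lb, Cd300ld, Cd300a, Cd300lf and Cd300e in both WT libraries. Cd300lb was at 727 ± 57.9 FPKM (SD, n = 2) and Cd300ld at 509 ± 81.0 FPKM (SD, n = 2) in WT, a gap larger than the spread of either. In RBP-J KO these neighbours overlapped, with Cd300ld above Cd300lb in replicate 1 and below it in replicate 2. At the low end, Cd300e stood below Cd300lf in RBP-J KO replicate 1 and above it in replicate 2, so that their order there was not settled by these libraries.

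Cd300a, the ITIM-bearing receptor for phosphatidylserine and phosphatidylethanolamine also called CLM-8, was the inhibitory member with the steadier difference. It was at 186 and 158 FPKM in WT replicates 1 and 2, against 367 and 348 FPKM in those of RBP-J KO. Both knockout libraries lay above both WT libraries, and the replicates of each group were close together, with 172 ± 19.6 FPKM for WT against 357 ± 14.0 FPKM for RBP-J KO (SD, n = 2). The ratio of RBP-J KO to WT was 1.98 in pair 1 and 2.20 in pair 2. On the log2 scale the difference was 1.06 (SE 0.19), with an unadjusted p of 0.0033 and an adjusted p of 0.528 in limma with Benjamini-Hochberg adjustment. Leaving out any 1 library gave log2 differences between 0.94 and 1.17. Among the genes detected in each library, Cd300a ranked above 78.9% and 75.9% in the WT replicates and above 90.4% and 90.5% in the RBP-J KO replicates.

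Cd300e, also called CLM-2 and known as a marker of nonclassical monocytes, the patrolling blood subset, was the lowest of the 5 in WT and had the largest fold of the 5. It was at 5.93 and 13.7 FPKM in WT replicates 1 and 2, against 26.2 and 86.4 FPKM in those of RBP-J KO. The groups did not overlap, but the replicate 2 libraries were higher than the replicate 1 libraries within each genotype. The ratio of RBP-J KO to WT was 4.42 in pair 1 and 6.31 in pair 2. On the log2(FPKM + 1) scale, which understates changes of low genes, the difference was 2.27 (SE 0.70), with an unadjusted p of 0.026 and an adjusted p of 0.964 in limma with Benjamini-Hochberg adjustment. Without RBP-J KO replicate 2 it was 1.43 and without RBP-J KO replicate 1 it was 3.11. By rank, Cd300e moved from above 18.1% and 22.5% of detected genes in WT to above 33.0% and 61.5% in RBP-J KO.

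Monocyte markers differed alongside Cd300e. Of 9 markers of classical and nonclassical monocytes, 8 were tested, all 8 were higher in RBP-J KO in both pairs by some margin, as were 25.1% of all genes tested, and their summed level was 878 and 248 FPKM in WT replicates 1 and 2 and 2560 and 1314 FPKM in RBP-J KO. Treml4, a receptor found on nonclassical monocytes, was at 39.5 and 23.9 FPKM in the WT libraries against 241 and 198 FPKM in the RBP-J KO libraries. Cx3cr1, the fractalkine receptor of the same subset, was at 303 and 30.6 FPKM in the WT libraries against 845 and 746 FPKM in the RBP-J KO libraries, while Ace was listed at 0 in every library. Within each genotype the summed markers and Cx3cr1 were higher in replicate 1, whereas Cd300e was higher in replicate 2. Spn, on the same list, was at 31.4 and 43.8 FPKM in WT replicates 1 and 2, against 76.7 and 52.1 FPKM in those of RBP-J KO. The part of these cells in the Cd300e and Cd300a values was not tested.

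The stretches upstream of both genes are shown because their levels differed in the same direction, beside that of Cd300lb, the neighbouring receptor gene whose level differed little. Each sequence is the 250 bases before the annotated start in the RefSeq table of build GRCm38.p6, printed in the direction of transcription: chr11:114889791-114890040 on the plus strand for Cd300a, chr11:115062040-115062289 on the minus strand for Cd300e and chr11:114934372-114934621 on the minus strand for Cd300lb. The expression files were made on build mm9, so these positions belong to the table alone. Capitals mark matches to the motifs named in the text that follows.
Cd300a: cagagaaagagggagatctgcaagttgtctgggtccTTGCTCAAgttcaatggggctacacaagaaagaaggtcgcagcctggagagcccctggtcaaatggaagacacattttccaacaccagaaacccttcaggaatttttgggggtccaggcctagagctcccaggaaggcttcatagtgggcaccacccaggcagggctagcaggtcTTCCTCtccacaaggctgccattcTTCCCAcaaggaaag
Cd300e: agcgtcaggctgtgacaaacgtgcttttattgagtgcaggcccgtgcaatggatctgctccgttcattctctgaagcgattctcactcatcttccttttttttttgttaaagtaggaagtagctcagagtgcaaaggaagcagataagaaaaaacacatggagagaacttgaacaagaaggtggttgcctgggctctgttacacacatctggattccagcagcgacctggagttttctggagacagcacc
Cd300lb: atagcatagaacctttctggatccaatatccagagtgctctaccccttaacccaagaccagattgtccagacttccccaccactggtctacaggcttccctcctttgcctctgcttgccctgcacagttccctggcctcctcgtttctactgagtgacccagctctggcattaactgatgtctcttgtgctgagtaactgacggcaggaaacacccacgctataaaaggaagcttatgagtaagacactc

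Each window was searched on both strands for TGGGAA, the core that RBP-J binds, for GAGGAA, the PU box of the macrophage factor PU.1, for TTGCNNAA, a C/EBP motif, and for the core of the interferon response element. The letters of one motif can overlap those of another. The Cd300a window held 1 match to TGGGAA, read as TTCCCA on the printed strand from 15 bases before the start, 1 to GAGGAA, read as TTCCTC from 39 bases before it, and 1 to TTGCNNAA. Neither the Cd300e nor the Cd300lb window held any of the 4. Of all 32851 windows of this length in the table, 21.6% held TGGGAA, 23.3% GAGGAA, 9.56% TTGCNNAA and 2.98% the interferon response element core. Among the other receptors, the Cd300ld window held TGGGAA and GAGGAA and the Cd300lf window GAGGAA alone. A match is a run of letters and not a measured binding site.

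Cd300lb, an activating receptor for phosphatidylserine that signals through DAP12 and is also called CLM-7, was the most abundant of the 5 in WT and differed least in relative terms between its libraries. It was at 768 and 686 FPKM in WT replicates 1 and 2, against 655 and 627 FPKM in those of RBP-J KO. Both knockout libraries lay below both WT libraries, as did 18.2% of all genes tested, while 11.7% lay above as did Cd300a and Cd300e. The log2 difference was -0.18 (SE 0.18), with an adjusted p of 0.999 in limma with Benjamini-Hochberg adjustment. Cd300lb ranked above 95.4% to 96.1% of the detected genes in each of the 4 libraries.

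Because Cd300a and Cd300lb are read in the same library, their ratio does not depend on how libraries were scaled. Cd300a stood at 0.242 and 0.230 of the Cd300lb level in WT replicates 1 and 2, and at 0.560 and 0.554 in RBP-J KO replicates 1 and 2. The 2 values of each genotype differed by far less than the genotypes did. A ratio shows that these receptors differed unequally, not which of them stayed the same. The ITIM-bearing receptors Cd300a and Cd300lf together were also set against the summed level of Cd300lb, Cd300ld and Cd300e. That ratio was 0.187 and 0.174 in WT and 0.344 and 0.358 in RBP-J KO. It leaves out the other CD300 genes, among them AF251705, a further activating receptor that was also higher in RBP-J KO in both pairs. The size of the ratio therefore depends on which genes are counted.

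**Figure D2:**
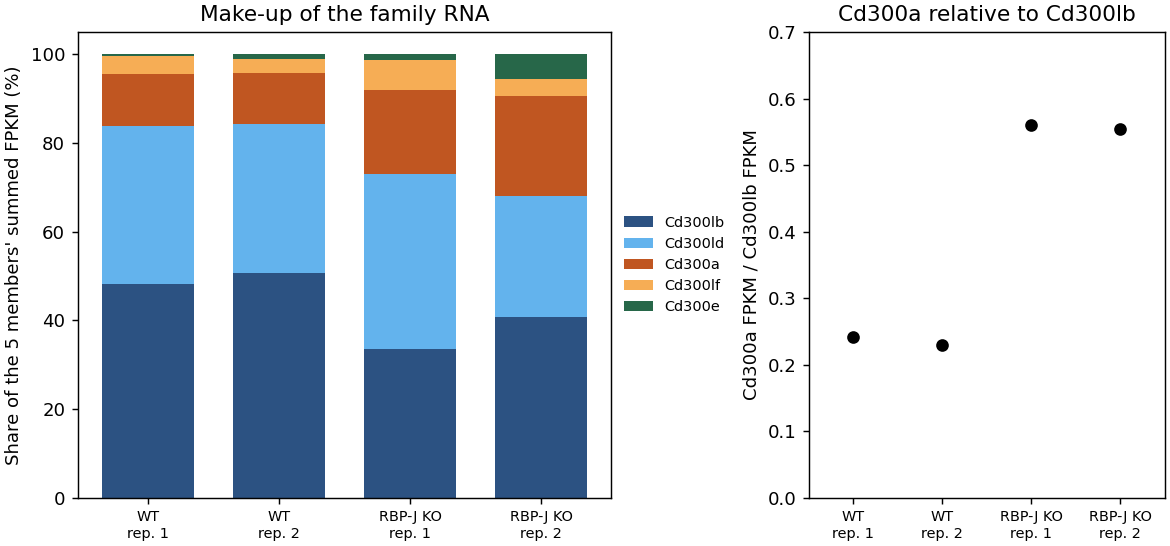
Left, share (%) of each receptor in the summed FPKM of the 5 in each library; right, Cd300a FPKM divided by Cd300lb FPKM, 1 point per library. The Cd300a share is 11.7% in each WT library and 18.8% and 22.6% in the RBP-J KO libraries, and the ratio is 0.242 and 0.230 against 0.560 and 0.554.

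In the make-up of the 5 receptors' RNA, the shares of Cd300a, Cd300e and Cd300lb did not overlap between the genotypes, whereas the 5-receptor sum did. The 5 receptors summed to 1590 and 1351 FPKM in WT replicates 1 and 2, against 1952 and 1538 FPKM in those of RBP-J KO. Cd300lb made up 48.3% and 50.8% of the sum in WT and 33.6% and 40.8% in RBP-J KO. Cd300a made up 11.7% of it in both WT libraries and 18.8% and 22.6% in RBP-J KO. Cd300e contributed 0.373% and 1.01% in WT and 1.34% and 5.62% in RBP-J KO. With the other listed CD300 genes, the sums were 2899 and 2553 FPKM in WT against 4047 and 3395 FPKM in RBP-J KO, without overlap. These wider sums add Cd300lh and Gm11710, whose coding sequences are 99.5% identical and whose values cannot be taken as separate measurements.

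Cd300ld, also called CLM-5 or MAIR-IV, is an activating receptor that pairs with the Fc receptor gamma chain. It was at 566 and 452 FPKM in WT replicates 1 and 2, against 771 and 419 FPKM in those of RBP-J KO. The knockout libraries enclosed the WT libraries, with a ratio of 1.36 in pair 1 and 0.927 in pair 2. The log2 difference was 0.17 (SE 0.35), with an adjusted p of 0.999 in limma with Benjamini-Hochberg adjustment, and without RBP-J KO replicate 1 it was -0.27. Its level followed the replicate number more than the genotype, being higher in replicate 1 within both groups.

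Cd300lf, also called CLM-1, carries ITIMs like Cd300a and serves as the entry receptor of murine norovirus. It was at 65.2 and 42.1 FPKM in WT replicates 1 and 2, against 132 and 57.8 FPKM in those of RBP-J KO. The groups overlapped, since RBP-J KO replicate 2 lay below WT replicate 1, although the knockout library was higher in each pair. The ratio was 2.02 in pair 1 and 1.37 in pair 2, and the log2 difference 0.73 (SE 0.48), with an adjusted p of 0.999 in limma with Benjamini-Hochberg adjustment. This value rested on single libraries: it was 0.14 without RBP-J KO replicate 1, 0.42 without WT replicate 2 and 1.32 without RBP-J KO replicate 2.

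The summed neutrophil markers were higher in replicate 1 of each genotype, as were Cd300ld, Cd300lf and the summed monocyte markers. Such a tie to the replicate number was common. The deviations of same-numbered libraries from their group means were correlated across the genes tested (r = 0.64). For WT and RBP-J KO in turn, the 12 markers tested of 13 summed to 7378 and 8773 FPKM in replicate 1 but to 369 and 1219 FPKM in replicate 2. S100a8, which encodes a calcium-binding protein plentiful in neutrophils, had 2473 and 2971 FPKM in replicate 1 but 69.6 and 270 FPKM in replicate 2, in the same order. Mmp8, on the same list, had 108 and 84.8 FPKM in replicate 1 and 85.2 and 189 FPKM in replicate 2. In RBP-J KO it thus went the other way. The part of neutrophils in the Cd300ld and Cd300lf values was not tested.

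The replicate 2 tables separate 2 transcripts of Cd300lf. Isoform 2 held 77.6% of its FPKM in WT and 79.3% in RBP-J KO, at 32.7 and 45.8 FPKM, with isoform 1 at 9.44 and 11.9 FPKM. The ratio of RBP-J KO to WT was 1.40 for isoform 2 and 1.27 for isoform 1, from 1 library each. The isoforms differ by 21 coding bases, present in isoform 1 and absent from isoform 2, and are shown to make clear how short the stretch is that tells their reads apart. Both runs come from the matching GENCODE M21 transcripts, with the extra bases in capitals.
Cd300lf isoform 1: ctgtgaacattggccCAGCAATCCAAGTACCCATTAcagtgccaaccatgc
Cd300lf isoform 2: ctgtgaacattggcccagtgccaaccatgc

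Among the other CD300 genes, 3 of the 4 tested were higher in RBP-J KO in both pairs by some margin, beside 25.1% of all genes tested. Of 12 further symbols of the family, older names included, 5 have an entry. Of those tested, 2 were at least 1.5-fold higher in both pairs and 1 lower, beside 3.86% and 3.63% of all genes tested. AF251705, now named Cd300c2, the activating receptor MAIR-II, was the most abundant, at 858 and 573 FPKM in the WT libraries against 1266 and 761 FPKM in the RBP-J KO libraries, with ratios of 1.48 and 1.33 in pairs 1 and 2 and overlapping groups. Cd300lh, now Cd300ld3, was at 241 and 372 FPKM in the WT libraries against 443 and 648 FPKM in the RBP-J KO libraries. Gm11710, now Cd300ld4, was at 208 and 247 FPKM in the WT libraries against 383 and 446 FPKM in the RBP-J KO libraries.

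Both Cd300lh and Gm11710 were higher in both knockout libraries than in either WT library, as were 11.7% of all genes tested. Their log2 differences were 0.84 (SE 0.32) and 0.87 (SE 0.20), with adjusted p of 0.999 and 0.725 in limma with Benjamini-Hochberg adjustment. Their coding sequences are 99.5% identical, and 75.8% of the 50-base windows of either transcript occur in other family transcripts, so their values cannot be taken as separate measurements. Cd300c was listed at 0 in 3 libraries and at 2.37 FPKM in RBP-J KO replicate 1.

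**Figure D3:**
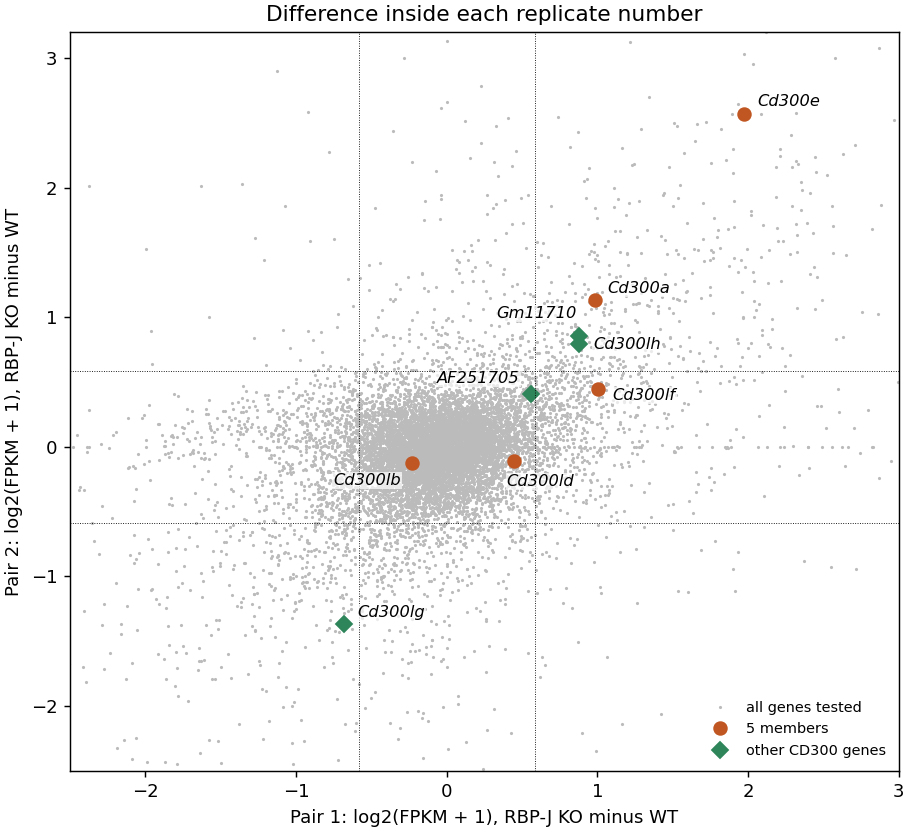
RBP-J KO minus WT in log2(FPKM + 1), pair 1 on the horizontal and pair 2 on the vertical axis; grey points are genes tested (those beyond the axes are not drawn), orange the 5 receptors, green the other CD300 genes, and dotted lines mark 1.5-fold. Cd300a, Cd300e, Gm11710 and Cd300lh lie beyond the lines in the upper right, while Cd300lb and Cd300ld lie within them.

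The overlap in sequence was small for the 5 receptors themselves. Of the 50-base windows in the transcripts, 1.98% of those of Cd300a also occurred in another listed CD300 gene, AF251705 in each case, and 5.37% of those of Cd300lf and 3.89% of those of Cd300ld were shared, mainly between these 2. Cd300e and Cd300lb shared none. The coding sequence of Cd300ld is 77.2% identical to each of Cd300lh and Gm11710. Its first 60 coding bases, which begin the signal peptide, are shown as a stretch where each of these relatives is more like Cd300ld than over the whole. They are printed from the GENCODE M21 transcripts, with capitals where a base differs from Cd300ld.
Cd300ld: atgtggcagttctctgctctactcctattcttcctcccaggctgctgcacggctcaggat
Gm11710: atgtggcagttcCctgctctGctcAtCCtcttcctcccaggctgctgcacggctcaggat
Cd300lh: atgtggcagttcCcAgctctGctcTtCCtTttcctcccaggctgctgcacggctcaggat

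Gm11710 differs from Cd300ld at 5 and Cd300lh at 7 of these 60 bases. Cd300ld was lower in RBP-J KO in pair 2, where both relatives were higher, at ratios of 0.927 against 1.81 for Gm11710 and 1.74 for Cd300lh. The sources do not say how reads that fit several genes were shared out.

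The genes beside the cluster went in both directions. Of 23 neighbours, 15 were tested, and their median log2 difference was -0.01. By at least 1.5-fold in both pairs, 1 was higher and 1 lower, beside 3.86% and 3.63% of all genes tested. Rab37, a small GTPase whose annotated gene spans Cd300lf on the other strand, was the higher one, but only at 1.17 and 0 FPKM in the WT libraries against 2.61 and 1.19 FPKM in the RBP-J KO libraries. The sources do not say whether reads were assigned by strand, without which reads of Cd300lf and Rab37 cannot be told apart where the genes overlap. Tmem104, a transmembrane protein, was at 182 and 193 FPKM in the WT libraries against 142 and 128 FPKM in the RBP-J KO libraries. Kctd2, an adaptor of ubiquitin ligases, was at 61.2 and 70.0 FPKM in the WT libraries against 80.9 and 92.7 FPKM in the RBP-J KO libraries.

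The adaptors through which the activating receptors signal were abundant in every library. Tyrobp was at 6246 and 6111 FPKM in the WT libraries against 7973 and 7264 FPKM in the RBP-J KO libraries, or 1.28-fold and 1.19-fold higher in pairs 1 and 2. Fcer1g was at 5894 and 6060 FPKM in the WT libraries against 7729 and 6858 FPKM in the RBP-J KO libraries. Hcst, which encodes the adaptor DAP10, was far lower, at 30.5 and 101 FPKM in the WT libraries against 43.2 and 82.9 FPKM in the RBP-J KO libraries. None of the 3 differed by 1.5-fold in both pairs, beside 3.86% of all genes tested that were higher and 3.63% that were lower. Both knockout libraries lay above both WT libraries for Tyrobp and Fcer1g, as for 11.7% of all genes tested.

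The phosphatases that ITIMs recruit did not reach 1.5-fold in both pairs either, 0 of 4 in each direction. Of all genes tested, 3.86% were higher and 3.63% lower by this rule. Ptpn6, which encodes SHP-1, was at 845 and 805 FPKM in the WT libraries against 1354 and 1039 FPKM in the RBP-J KO libraries. Both knockout libraries thus lay above both WT libraries, as for 11.7% of all genes tested. Inppl1, the lipid phosphatase SHIP2, was at 374 and 292 FPKM in the WT libraries against 252 and 218 FPKM in the RBP-J KO libraries, in the opposite direction. Ptpn11, which encodes SHP-2, was between 134 and 175 FPKM in all libraries, and Inpp5d, the lipid phosphatase SHIP1, was at 565 and 387 FPKM in the WT libraries against 709 and 465 FPKM in the RBP-J KO libraries; for both the groups overlapped.

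Further down the ITAM pathway, 17 of 18 listed kinases and effectors were tested, and their median log2 difference was 0.18. By at least 1.5-fold in both pairs, 1 was higher and 1 lower, beside 3.86% and 3.63% of all genes tested. Lat2, an adaptor phosphorylated after receptor engagement, was the lower gene by this rule, at 750 and 1014 FPKM in the WT libraries against 392 and 533 FPKM in the RBP-J KO libraries. Lcp2, the adaptor SLP-76, was at 272 and 230 FPKM in the WT libraries against 405 and 518 FPKM in the RBP-J KO libraries.

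Other receptors and bridging proteins for dying cells differed in both directions. Of 18, 14 were tested, with a median log2 difference over the list of -0.19. Of these, 3 were at least 1.5-fold higher and 1 lower in each pair, beside 3.86% and 3.63% of all genes tested. Axl, a receptor tyrosine kinase that binds phosphatidylserine through Gas6, was at 117 and 16.1 FPKM in the WT libraries against 825 and 226 FPKM in the RBP-J KO libraries. Cd36, a scavenger receptor for oxidized lipids, was at 5448 and 5231 FPKM in the WT libraries against 1571 and 3044 FPKM in the RBP-J KO libraries. Mfge8, a phosphatidylserine-binding bridge, was at 51.8 and 65.2 FPKM in the WT libraries against 37.2 and 39.2 FPKM in the RBP-J KO libraries.

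Of 8 receptors with a related immunoglobulin domain, 6 were tested. Their median log2 difference was 0.78 in pair 1 and 1.19 in pair 2. At least 1.5-fold higher in both pairs were 4 of the 6, beside 3.86% of all genes tested. Besides Treml4, these included Trem1, an activating receptor of neutrophils and monocytes, at 28.6 and 5.90 FPKM in the WT libraries against 55.5 and 27.9 FPKM in the RBP-J KO libraries, and Treml2, at 29.9 and 15.6 FPKM in the WT libraries against 61.6 and 29.9 FPKM in the RBP-J KO libraries. Groups overlapped for both, and the neutrophil markers were higher in RBP-J KO in both pairs for 9 of 12, beside 25.1% of all genes tested. None of the genes named in these lists passed limma with Benjamini-Hochberg adjustment.

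The remaining cell types were checked against macrophage markers, which summed to between 12851 and 19699 FPKM over 9 genes. Mast cell and basophil markers, cells that also carry Cd300a, summed to 7.80 and 0 FPKM in WT replicates 1 and 2, against 39.4 and 3.53 FPKM in those of RBP-J KO, with 4 of 10 listed at 0 in every library. Eosinophil markers summed to 34.4 and 4.22 FPKM in the WT libraries against 120 and 28.2 FPKM in the RBP-J KO libraries, dendritic cell markers to 38.2 and 52.5 FPKM in the WT libraries against 156 and 37.1 FPKM in the RBP-J KO libraries. B cell markers lay between 6.93 and 37.2 FPKM, T and NK cell markers between 18.7 and 41.1 FPKM and fibroblast markers between 0 and 5.50 FPKM. Most of the T and NK cell sum was Cd247, at 30.1 and 18.8 FPKM in the WT libraries against 31.5 and 18.7 FPKM in the RBP-J KO libraries. The erythroid and platelet list summed to between 2532 and 4324 FPKM, nearly all of it Pf4, a chemokine that macrophages also make. The part of any of these cells in the receptor values was not tested.

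The likeness of each receptor to other genes was taken as the root mean square difference of log2(FPKM + 1), centred on each gene's mean over the 4 libraries, against 9010 genes averaging 20 FPKM or more, the receptor itself left out. For Cd300a the nearest genes were Smad3, a transducer of TGF-beta signals, at 0.05, and Pvrl4, an adhesion molecule, at 0.09, and 26 genes were within 0.2. For Cd300e they were Mfng, a glycosyltransferase that modifies Notch receptors, at 0.32, and Slc40a1, the iron exporter ferroportin, at 0.42, and 0 genes were within 0.2. Cd300lf had 95 genes within 0.2, the nearest being Parp9, a protein of the antiviral response, at 0.04 and Tor3a at 0.05.

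The patterns of the other receptors were common ones. Cd300ld had 821 genes within 0.2, led by Csf2ra, a receptor subunit for GM-CSF, at 0.01. Cd300lb had 4210, led by Prrc2b and Cul4a at 0.0067 and 0.0082, so that nearly any gene with little difference between libraries resembled it. With 4 libraries such likeness is a description only.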

How the data were processed

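RNA from 4 libraries was analysed, 2 WT and 2 RBP-J KO, grouped by their titles. The submitters' processing notes name TopHat, an aligner, Cufflinks, a transcript quantifier, and the genome build mm9, with versions, annotation and options not given in the sources used here. Values deposited by the authors were taken to be FPKM, as Cufflinks reports, since no header states a unit. The number of reads is unknown, so counting error could not be given. Libraries had 12142 to 12707 genes above 0.

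Replicate 1 is listed by gene (22026 entries) and replicate 2 by transcript (27583 entries), summed here per symbol. In all, 25 symbols that had become dates were restored. Values were tested as log2(FPKM + 1) for the 11851 genes averaging 1 FPKM or more, with limma 3.58.1 in R 4.3.3 (group as the only term, variance trend, two-sided, Benjamini-Hochberg adjustment, threshold 0.05), after the fit had been tested on simulated data. Genes at least 1.5-fold apart in the same direction in both same-numbered pairs were counted separately. A further 13 settings were tried.

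The 5 members and all 18 gene lists (the family, 7 of its pathway and surroundings, 10 of cell types) were chosen with earlier results of these data known. Genes named singly are Rbpj, the members, all genes of the adaptor, phosphatase and CD300 lists, up to 3 of each other pathway list with the smallest p, and the 2 nearest in pattern to each member, except that some genes this rule names are not reported here; cell type markers, Ddx3y and Xist were picked for illustration after their values were seen. Sequences came from RefSeq (GRCm38.p6) and GENCODE M21, matched by symbol, synonym or accession, and coding sequences were aligned with Biopython 1.88. Genome positions of the mm9 files were not used here. Figures were drawn with matplotlib 3.10.9.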

Additional observations from a re-analysis of the deposited data

Results flagged for a closer look

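Cd300ld went in opposite directions in the 2 same-numbered pairs, which by Ddx3y and Xist came from mice of different sex and whose tables have different layouts. The log2 difference was 0.44 in pair 1 and -0.11 in pair 2. With 1 library per genotype in each pair the difference between the pairs was not tested.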

How the results depend on the processing

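Cd300a and Cd300e were higher, and Cd300lb lower, in RBP-J KO under all 13 alternatives, and 0 members had an adjusted p under 0.05 in any of them. The log2 difference ranged from 0.94 to 1.17 for Cd300a, from 1.43 to 3.11 for Cd300e, from -0.26 to -0.10 for Cd300lb and from 0.14 to 1.32 for Cd300lf. That of Cd300ld ranged from -0.27 (without RBP-J KO replicate 1) to 0.61. Both receptors that were 1.5-fold higher in both pairs numbered 2 under each alternative that keeps all libraries. The number of genes at least 1.5-fold lower in both pairs was 430, and 282 with a pseudocount of 5. Over all genes, 524 had an unadjusted p under 0.05, and between 307 and 778 did when 1 library was left out, the lowest without RBP-J KO replicate 1. The lone library left in a group was then assumed to vary like the others. Equal replicate numbers are not said to pair libraries, but the deviations of same-numbered libraries from their group means were correlated across genes (r = 0.64). With the replicate number as a block, 1557 genes had an unadjusted p under 0.05 and 0 an adjusted p under 0.05, with adjusted p in limma of 0.092 for Cd300a, 0.088 for Cd300e, 0.276 for Cd300lf, 0.642 for Cd300lb and 0.766 for Cd300ld. The SE of the Cd300lf difference was then 0.20 and its unadjusted p 0.022, against 0.48 and 0.195 without the block. The p-values with the block measure a spread from which the replicate number, and with it sex and layout, was taken out. The depth is unknown, and 2 libraries per group limit the precision.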

Other observations

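Cd300lg, a family member known from endothelial cells and encoded apart from the cluster, was low. It was at 2.38 and 9.74 FPKM in WT replicates 1 and 2, against 1.11 and 3.16 FPKM in those of RBP-J KO, lower in each pair, with overlapping groups and an adjusted p of 0.999 in limma with Benjamini-Hochberg adjustment. In the replicate 2 tables the transcript of isoform 3 was at 4.61 FPKM in WT but 0.03 FPKM in RBP-J KO, and that of isoform 2 at 2.74 and 2.63 FPKM. Its level exceeded that of no member in any library.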
